A study of Danio rerio with 10 samples.

Results

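The androgen synthesis genes of the zebrafish testis were followed as 10 Ensembl genes, listed by ID, of the 33737 genes counted: star, 2 genes named cyp11a1, fdx1b, hsd3b1, hsd3b2, cyp17a1, hsd17b3, cyp11c1 and hsd11b2. All 10 had a row and a symbol, and all 10 passed the filter on low counts, as 19420 genes did. They were measured by RNA sequencing in testis of adult wild-type fish (Danio rerio) incubated for 3 days. The Amh group (n = 5 libraries) received Amh (anti-Müllerian hormone) together with 11KT (11-ketotestosterone), and the control group (n = 5 libraries) received 11KT without Amh, so androgen was supplied to both groups. Per the series' design text the libraries of a group are biological replicates. The labels name testis tissue, with no sort of cells and no dose, and do not say whether libraries of the same number come from the same fish.

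Leydig cells, which lie between the spermatogenic tubules, make the androgens of the testis. Cholesterol is brought into mitochondria by the protein of star, cleaved to pregnenolone by the enzyme of cyp11a1 and converted by 3-beta- and 17-beta-hydroxysteroid dehydrogenases and by the enzyme of cyp17a1 to androstenedione and testosterone. In fish the enzymes of cyp11c1 and hsd11b2 then add and oxidise an oxygen at carbon 11 (an 11-hydroxyl and an 11-keto group), which gives 11KT, the main androgen of male fish. Amh belongs to the TGF-beta family and is made by Sertoli cells. In mammals it is known to lower the expression of steroid enzymes in Leydig cells.

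Library totals were 10974579 to 15448069 counts in the Amh group and 8455226 to 11934679 counts in the control group. Within each number the Amh library was the deeper, by 1.20 to 1.30 times. Read counts given below are not scaled for this. A gene with 0 reads could still stand at up to 3 counts, or 0.194 to 0.355 CPM (counts per 1000000 of the library's total), and such limits cover counting error only. All levels below are CPM of TMM-scaled library sizes. Libraries of the same number in the 2 groups deviated together from their group means (correlation across genes of 0.490 to 0.784), so each gene is given by group and also within number. The unpaired comparison has the group as its only term, and the paired comparison adds the replicate number. Fold changes are log2 values of Amh over control, and a gene counts as called at a Benjamini-Hochberg adjusted p under 0.05 over all genes tested. Levels of different genes are not ranked against each other, because the lengths needed for that are not used here. In tissue RNA, fewer Leydig cells and less RNA per Leydig cell cannot be told apart.

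In the unpaired comparison 0 of the 10 androgen synthesis genes were called (edgeR quasi-likelihood test, and also by DESeq2 and by limma-voom), and the share called over all genes was 0% in each. At an unadjusted p under 0.05 the tools also had 0 of the 10, beside 0.675% of all genes by edgeR, 0.836% by DESeq2 and 0.7% by limma-voom. The groups overlapped in all 10 genes, as in nearly all genes tested (Amh lower without overlap in 0.0772%, higher in 0.0618%). In paired edgeR the largest differences were those of cyp11c1 (-0.77 ± 0.171), star (-0.64 ± 0.139) and hsd11b2 (-0.55 ± 0.128, log2, SE, n = 5 pairs). The Amh level of hsd11b2 was lower in 5 of 5 pairs. fdx1b (-0.48 ± 0.209) and hsd3b1 (-0.47 ± 0.179) came close behind. In paired limma-voom hsd3b1 (-0.573) and fdx1b (-0.565) were slightly lower than hsd11b2 (-0.562). Paired edgeR called 0 of the 10, where it called 0.0206% of all genes, and paired limma-voom called 0 of the 10, where it called 0.0412%. Paired DESeq2 called 2 of the 10, star (adjusted p = 0.0404) and cyp11c1 (adjusted p = 0.0466), both lower with Amh, where it called 0.192% of all genes with an adjusted p (0.0614% lower with Amh). It gave no adjusted p to hsd3b2 and hsd17b3, so these could not be called. Both cyp11a1 genes lay near 0 in both comparisons.

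**Figure D1:**
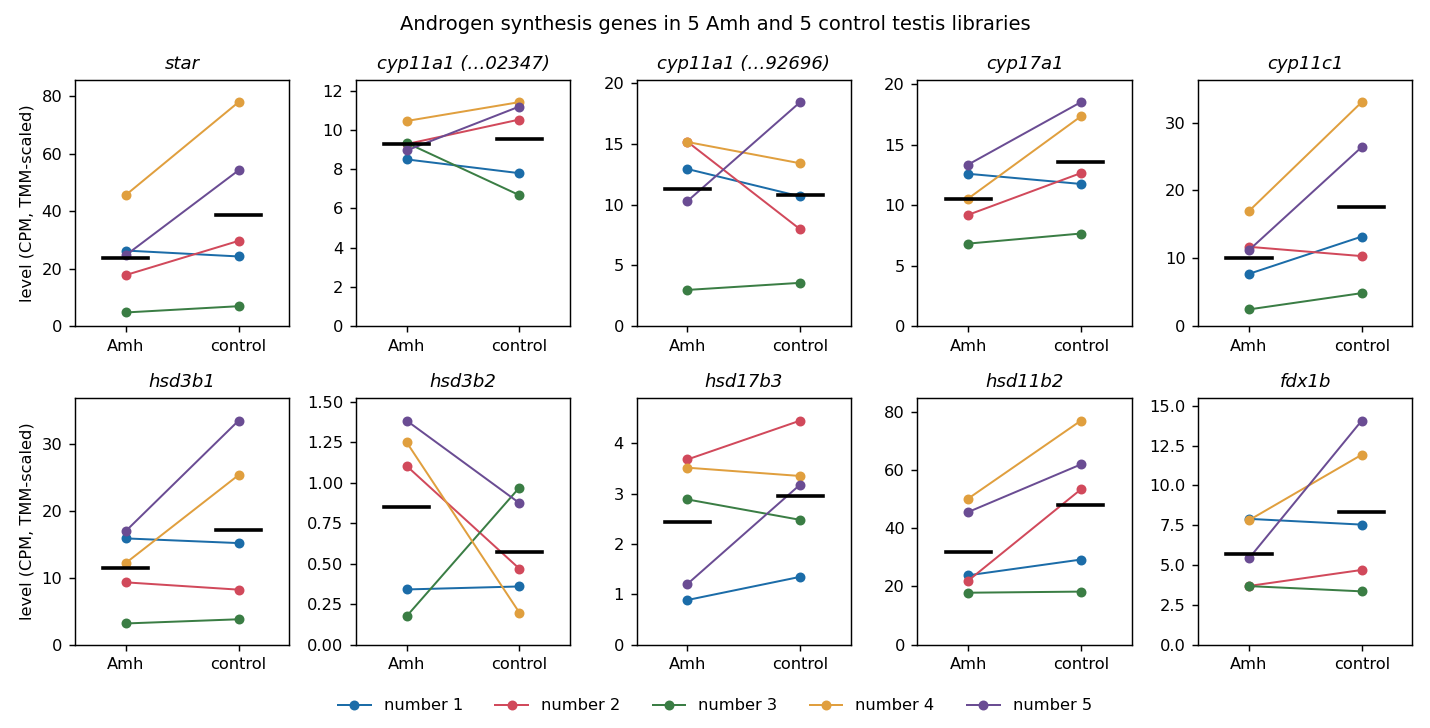
Level of each androgen synthesis gene in CPM (linear axis from 0, a scale of its own in each panel) in the 5 Amh libraries (left) and 5 control libraries (right); lines join libraries of the same replicate number and black bars are group means. The lines of star, cyp11c1 and hsd11b2 mostly run lower on the Amh side, and in all 10 panels the groups overlap.

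The level of star (ENSDARG00000006137), whose protein carries cholesterol to the inner mitochondrial membrane, was 26.3, 17.7, 4.72, 45.6 and 24.7 CPM in Amh libraries 1 to 5. In control libraries 1 to 5 it was 24.2, 29.6, 6.90, 78.0 and 54.2 CPM. The number 3 libraries were the lowest and the number 4 libraries the highest of each group, and the groups overlapped. Within numbers the log2 ratio of Amh to control was 0.12, -0.73, -0.53, -0.77 and -1.13, so the Amh library was lower in 4 of 5 pairs and about level in number 1. The unpaired fold change was -0.70 ± 0.587 (log2, SE, adjusted p = 0.9999), and the paired p of star (unadjusted 0.000328) was the 26th smallest of all 19420 genes in edgeR (adjusted p = 0.232).

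Both cyp11a1 genes encode, by their symbol, the cytochrome P450 that cuts the cholesterol side chain. RefSeq lists neighbouring cyp11a1 copies in the zebrafish genome, and how reads that fit both were counted is not stated, so the split of reads between the 2 genes is uncertain. ENSDARG00000002347 stood at 8.51, 9.29, 9.35, 10.5 and 8.96 CPM in Amh libraries and at 7.80, 10.5, 6.68, 11.4 and 11.2 CPM in control libraries. It was the steadiest of the 10 genes, with 1.71 times between its lowest and its highest library, where star spanned 16.5 times. ENSDARG00000092696 stood at 12.9, 15.2, 2.97, 15.2 and 10.3 CPM in Amh libraries and at 10.7, 7.96, 3.56, 13.4 and 18.4 CPM in control libraries, lowest in number 3 of both groups. The paired fold changes were -0.02 ± 0.149 and 0.06 ± 0.199 (log2, SE), and the direction of each differed between pairs (lower with Amh in 3 and in 2 of 5).

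fdx1b (ENSDARG00000038956) encodes a mitochondrial ferredoxin that passes electrons to steroid-making P450 enzymes in zebrafish. Its level was 7.89, 3.68, 3.67, 7.81 and 5.41 CPM in Amh libraries and 7.53, 4.69, 3.34, 11.9 and 14.1 CPM in control libraries. The 2 highest values were the control libraries of numbers 4 and 5, and in numbers 1 and 3 the Amh library was slightly the higher. The paired fold change was -0.48 ± 0.209 (log2, SE, adjusted p = 0.542). Without number 5, whose ratio was -1.35, it was -0.21 ± 0.205.

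hsd3b1 (ENSDARG00000069926) encodes a 3-beta-hydroxysteroid dehydrogenase, which turns pregnenolone-type into progesterone-type steroids. It stood at 15.9, 9.29, 3.15, 12.2 and 17.0 CPM in Amh libraries and at 15.2, 8.20, 3.77, 25.3 and 33.5 CPM in control libraries. Numbers 1 to 3 were nearly level between the groups (log2 ratios 0.06, 0.18 and -0.25), and numbers 4 and 5 were lower with Amh by about a factor of 2 (ratios -1.05 and -0.97). The paired fold change was -0.47 ± 0.179 (log2, SE, adjusted p = 0.475). It was -0.29 ± 0.196 without number 4 and -0.29 ± 0.2003 without number 5.

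hsd3b2 (ENSDARG00000019747), the other gene of that name, was close to the detection limit, with 2 to 23 reads in Amh libraries and 2 to 11 reads in control libraries. Its levels were 0.175 to 1.38 CPM with Amh and 0.197 to 0.970 CPM in control, with no common direction (pair ratios -1.73 to 1.95). The paired fold change was 0.51 ± 0.522 (log2, SE, adjusted p = 0.822).

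The enzyme of cyp17a1 (ENSDARG00000033566) has 17-hydroxylase and 17,20-lyase activity and commits steroids to androgens. It stood at 12.6, 9.20, 6.82, 10.5 and 13.4 CPM in Amh libraries and at 11.8, 12.7, 7.65, 17.3 and 18.5 CPM in control libraries. The Amh library was lower in 4 of 5 pairs, all but number 1. The paired fold change was -0.35 ± 0.140 (log2, SE, adjusted p = 0.497), and the 2 groups overlapped.

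hsd17b3 (ENSDARG00000023287), the testicular 17-beta-hydroxysteroid dehydrogenase that reduces androstenedione to testosterone, had 13 to 45 reads in Amh libraries and 15 to 40 reads in control libraries. It stood at 0.885, 3.68, 2.88, 3.52 and 1.20 CPM in Amh libraries and at 1.35, 4.45, 2.48, 3.35 and 3.18 CPM in control libraries. Here the number 1 libraries, not those of number 3, were the lowest of each group, and Amh library 5 was also low. The paired fold change was -0.37 ± 0.274 (log2, SE), with the Amh library lower in 3 of 5 pairs. The log2 ratio was -1.29 in number 5 and -0.52 to 0.21 in the other numbers. Over the paired alternatives the fold change ran from -0.53 to -0.11.

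cyp11c1 (ENSDARG00000042014), which encodes the 11-beta-hydroxylase, stood at 7.69, 11.7, 2.45, 17.0 and 11.2 CPM in Amh libraries. In control libraries it stood at 13.2, 10.3, 4.85, 33.0 and 26.4 CPM. Numbers 1, 3, 4 and 5 were lower with Amh (log2 ratios -0.76, -0.94, -0.95 and -1.23), and number 2 was slightly higher (0.18). The unpaired fold change was -0.81 ± 0.520 (log2, SE, adjusted p = 0.9999). Paired adjusted p-values were 0.232 by edgeR, 0.0466 by DESeq2 and 0.0952 by limma-voom.

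hsd11b2 (ENSDARG00000001975), whose enzyme oxidises the 11-hydroxyl to the 11-keto group, stood at 23.8, 22.0, 17.8, 50.2 and 45.6 CPM in Amh libraries. In control libraries it stood at 29.2, 53.4, 18.2, 77.1 and 62.0 CPM. It was the only one of the 10 genes that was lower with Amh in 5 of 5 pairs, which held for 5.09% of all genes tested. The ratio ran from -0.03 in number 3 to -1.27 in number 2 (log2). The paired adjusted p-values were 0.284 in edgeR, 0.169 in limma-voom and 0.0797 in DESeq2. Without number 2, the pair with its largest difference, the fold change was -0.38 ± 0.0901 (log2, SE, adjusted p = 0.0385, paired edgeR). That fit called 1.16% of all genes tested. Without number 1, 3, 4 or 5 paired edgeR did not call hsd11b2.

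**Figure D2:**
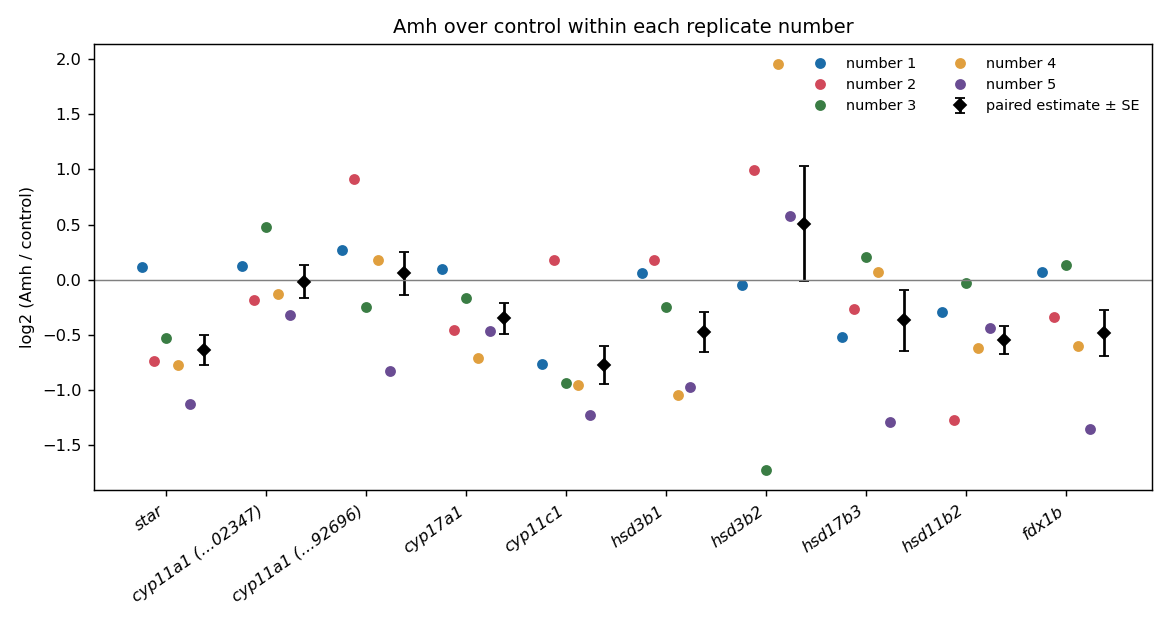
Log2 ratio of Amh to control for each androgen synthesis gene within each of the 5 replicate numbers (points; difference of log2 CPM with a prior count of 2), with the paired edgeR estimate ± SE (diamonds). The points of cyp11c1, star and hsd11b2 lie mostly below 0, those of both cyp11a1 genes on both sides, and those of hsd3b2 spread from -1.73 to 1.95.

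Of the 10 genes, 8 had a paired fold change below 0, where 51.2% of all genes tested did. The paired median over the 10 genes was -0.42, beside -0.01 over all genes tested (log2). An unadjusted paired p under 0.05 with a lower Amh level held for 6 of the 10 (star, cyp17a1, cyp11c1, hsd3b1, hsd11b2 and fdx1b), and for 4.88% of all genes tested. At least 4 of 5 pairs were lower with Amh in 4 of the 10 genes and in 23.3% of all genes tested. These counts describe a list chosen with earlier results of these data known, over genes that vary together between libraries.

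**Figure D3:**
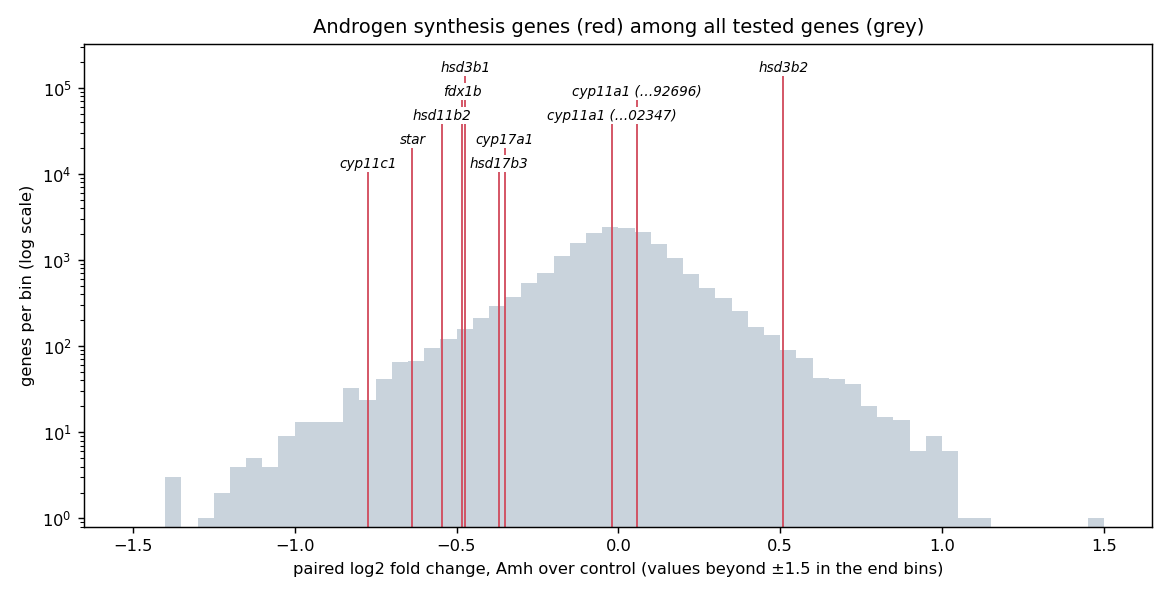
Paired log2 fold changes of Amh over control for all 19420 genes tested (grey; the count axis is logarithmic) with the 10 androgen synthesis genes marked in red. Of the 10, 7 lie between -0.35 and -0.77, 2 near 0 and hsd3b2 at 0.51.

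Calls among the 10 genes moved with the pairs that entered. Without number 2, paired edgeR called 4 of the 10, all lower with Amh: star, cyp11c1, hsd11b2 and hsd3b1 (adjusted p = 0.0194, 0.000503, 0.0385 and 0.0450), where it called 1.16% of all genes tested. Without number 1 it called star (adjusted p = 0.0422), the only gene called (0.00514%). Without number 3, 4 or 5 it called 0 of the 10, beside 0.00511%, 0% and 0% of all genes, with 6, 3 and 3 of the 10 at an unadjusted p under 0.05 (7.41%, 7.34% and 6.32% of all genes). With no filter on low counts, paired edgeR called star, cyp11c1 and hsd11b2 (adjusted p = 0.000116, 0.000390 and 0.000458), beside 0.389% of all genes. Paired DESeq2 was rerun without each number in turn (a check added after the data were seen). It called star without number 1 (beside 0.0514% of genes with an adjusted p) and hsd11b2 without number 2 (3.62%) or 3 (0.0814%). Without number 4 (0.0761%) or 5 (0.0155%) it called 0 of the 10. In each of these last, 3 of the 10 had an unadjusted p under 0.05 (4.01% and 3.28% of all genes). Genes with an adjusted p were 6320 of 19661 tested without number 2, 18431 of 19570 without number 3 and 13145 of 19607 without number 4. A gene without an adjusted p could not be called.

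**Figure D4:**
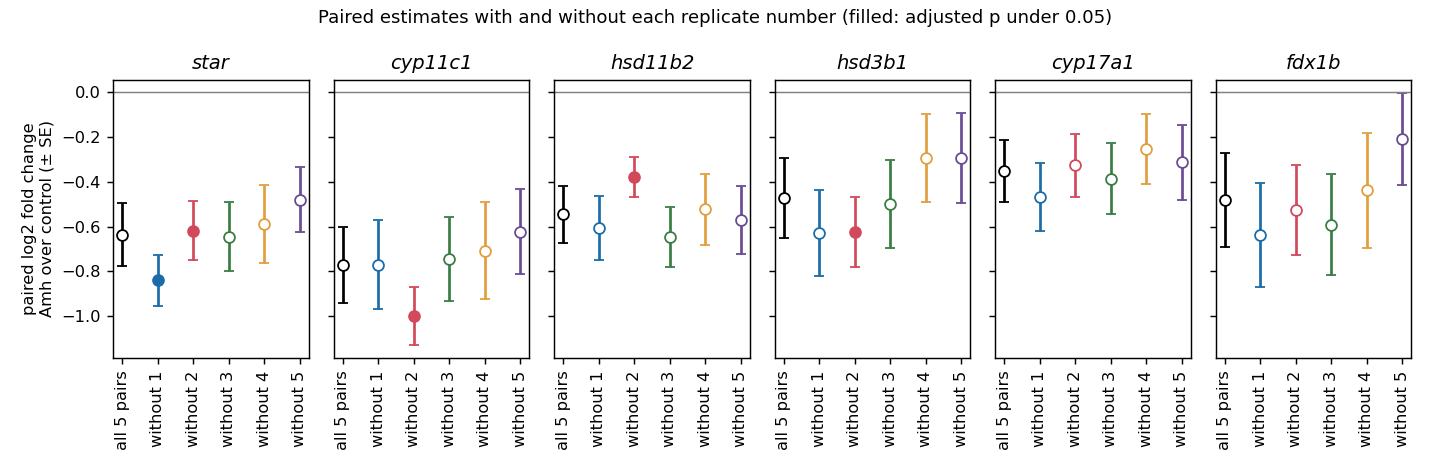
Paired edgeR log2 fold change ± SE of the 6 genes chosen for an unadjusted paired p under 0.05, from all 5 pairs (black) and without each replicate number (colours); filled points have an adjusted p under 0.05. All estimates shown are below 0, and those of star, cyp11c1, hsd3b1 and fdx1b are among the ones that lie nearer to 0 without number 5.

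In 9 of the 10 genes most of the spread lay between replicate numbers. The number accounted for 90.2% of the variance of star (log2 CPM), 89.7% of hsd3b1, 87.6% of cyp11a1 ENSDARG00000092696, 81.3% of cyp11c1, 78.7% each of hsd11b2 and hsd17b3, 74.5% of cyp17a1, 74.2% of fdx1b and 62.2% of cyp11a1 ENSDARG00000002347. It accounted for 33.0% in hsd3b2, the exception, beside a median of 77.2% over all genes tested. The group accounted for 15.2% of the variance of cyp17a1, 13.1% each of cyp11c1 and hsd11b2, 9.73% of fdx1b, 6.77% of hsd17b3, 6.72% of star, 5.03% of hsd3b2 and 3.97% of hsd3b1. It accounted for 0.0116% (ENSDARG00000002347) and 0.120% (ENSDARG00000092696) in the cyp11a1 genes, beside a median of 2.86% over all genes tested. The number 3 pair was the lowest of the 5 in both groups for star, cyp11c1, hsd3b1, hsd11b2, cyp17a1, fdx1b and cyp11a1 ENSDARG00000092696. Numbers 4 and 5 held the highest control levels of star, cyp11c1, hsd3b1, hsd11b2, cyp17a1 and fdx1b.

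**Figure D5:**
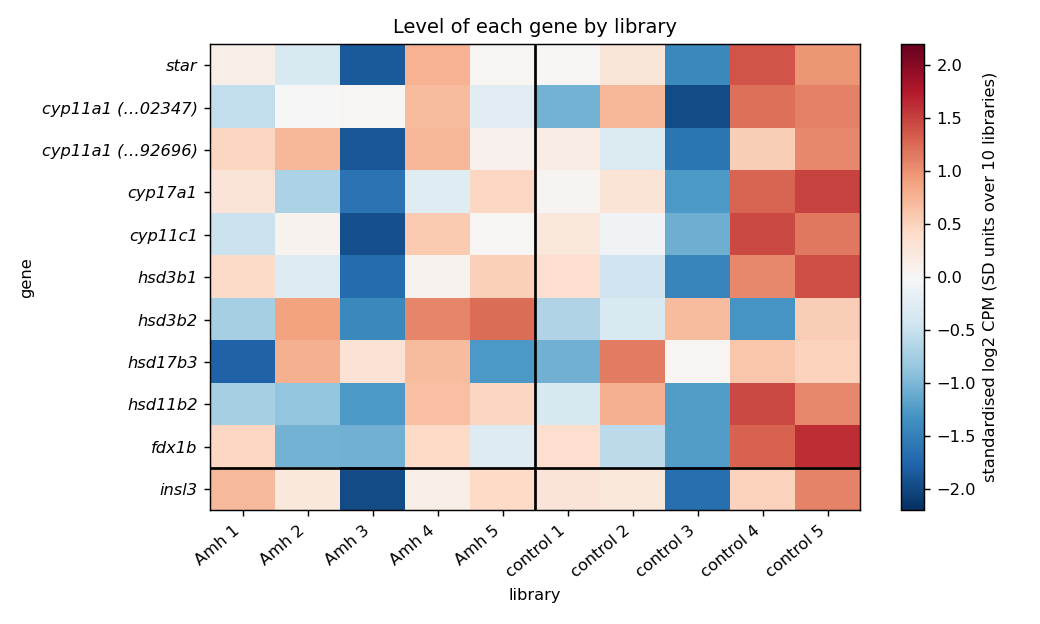
Standardised log2 CPM (SD units over the 10 libraries) of the 10 androgen synthesis genes and, below the line, of insl3; Amh libraries are on the left and control libraries on the right. The number 3 libraries are low and control libraries 4 and 5 high in most genes, whereas hsd3b2 and hsd17b3 have patterns of their own.

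Over the 10 libraries, star correlated with cyp11c1 at r = 0.95, with hsd3b1 at 0.90, with cyp17a1 at 0.90 and with hsd11b2 at 0.89 (Pearson, log2 CPM, a description, since libraries share numbers). Against the mean of the other 9 genes, r was 0.69 to 0.95 for 8 of the genes and 0.07 and 0.11 for hsd3b2 and hsd17b3. These last 2 had the fewest reads of the 10 genes.

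Among 13620 other genes with a mean of at least 5 CPM, the 8 most like the mean standardised level of the 10 genes (r = 0.94 to 0.96 over 10 libraries) were fgf1b, ILDR2, FADS3, si:ch211-194e1.8, GLS2, rad9a, nt5dc2 and zgc:153169. An r of at least 0.9 was reached by 30 of the 13620. The nearest, fgf1b, a fibroblast growth factor gene, stood at 2.71 CPM in Amh 3 and 4.42 CPM in control 3, and at 13.4 CPM in control 5. With each library left out in turn, 3 to 7 of these 8 stayed among the nearest 8.

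insl3, the insulin-like peptide hormone of Leydig cells, shared the low number 3 libraries. It stood at 139.7, 84.2, 8.48, 75.3 and 104 CPM in Amh libraries and at 88.2, 86.4, 11.7, 112 and 204 CPM in control libraries, with a paired fold change of -0.26 ± 0.165 (log2, SE, adjusted p = 0.690).

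Other steroid genes lay on both sides of 0. Of 23 regulators, electron carriers and cholesterol carriers, 21 were tested and edgeR called 0 in either comparison (paired, 2 higher and 0 lower with Amh at an unadjusted p under 0.05, beside 3.84% and 4.88% of all genes), with a paired median of 0.11 (log2), 14 above 0 and 7 below. Of 23 other steroid enzymes, 18 were tested and edgeR called 0 (paired, unadjusted p under 0.05 for 1, lower with Amh, beside 4.88%), with a paired median of -0.06, 6 above 0 and 12 below. NR5A1, the nuclear receptor SF-1 that drives steroid genes, was higher with Amh in 5 of 5 pairs (a share of 4.65% among all genes). With NR5A1 included, 3 of the 21 tested regulators and carriers were higher in 5 of 5 pairs. Its log2 ratio was 1.25 in number 2 and about level in number 5 (0.01). NR5A1 stood at 4.56 ± 0.715 CPM with Amh and 3.49 ± 1.12 CPM in control (SD, n = 5 each, paired edgeR adjusted p = 0.659). The electron carriers had paired fold changes of -0.02 ± 0.0849 (FDXR, ferredoxin reductase) and of -0.03 ± 0.0834 and 0.16 ± 0.0855 (the 2 genes of POR, P450 reductase; log2, SE).

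lhcgr, the receptor for luteinising hormone, had 3 to 26 reads in Amh libraries and 3 to 12 in control libraries, and did not pass the filter. FSHR, the receptor for follicle-stimulating hormone, which fish Leydig cells also carry, stood at 3.33, 1.84, 0.350, 1.48 and 2.17 CPM in Amh libraries and at 1.61, 1.05, 0.108, 1.58 and 0.954 CPM in control libraries. FSHR was higher with Amh in 4 of 5 pairs (paired fold change 0.79 ± 0.332, log2, SE, adjusted p = 0.528). Of these pairs, number 3 held 4 reads with Amh and 1 in control. At least 4 of 5 pairs were higher in 21.3% of all genes tested.

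NPC2 (ENSDARG00000090912), a lysosomal cholesterol carrier, stood at 143 ± 9.15 CPM with Amh and 124 ± 21.6 CPM in control (SD, n = 5 each). It was higher with Amh in 4 of 5 pairs, all but number 2. At least 4 of 5 pairs were higher in 21.3% of all genes tested. Its paired fold change was 0.21 ± 0.0796 (log2, SE, adjusted p = 0.461 by edgeR). Without number 2 the adjusted p was 0.0258, in a fit that called 1.16% of all genes tested. The other NPC2 gene in the list, ENSDARG00000096979, had a paired fold change of -0.38 ± 0.275 (log2, SE, adjusted p = 0.723). hsd20b2, a 20-beta-hydroxysteroid dehydrogenase, was lower with Amh in 5 of 5 pairs (a share of 5.09% among all genes tested). Its number 1 pair was about level (log2 ratio -0.02). It had 12 to 30 reads in Amh libraries and 20 to 34 in control libraries. Its level was 1.66 ± 0.499 CPM with Amh and 2.50 ± 0.458 CPM in control (SD, n = 5 each, paired adjusted p = 0.568). cyp17a2, a paralogue of cyp17a1 with 17-hydroxylase activity, stood at 12.1 ± 2.07 CPM with Amh and 11.5 ± 1.86 CPM in control. hsd17b12b had a paired fold change of 0.11 ± 0.0796. CYP19A1, aromatase, which turns androgens into estrogens, had 0 to 7 reads with Amh and 0 to 4 reads in control.

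star, cyp11c1 and fdx1b were also in the list of genes of interrenal cells, the fish counterpart of the adrenal cortex. That list need not name every androgen synthesis gene that this tissue uses. Of that tissue's defining genes, cyp21a2 had 0 to 4 reads with Amh and 0 to 2 in control, and mrap, a partner protein of the ACTH receptor, 0 to 31 reads with Amh and 0 to 13 in control. mc2r, the receptor for the pituitary hormone ACTH, stood at 3.13 to 5.94 CPM with Amh and 2.27 to 5.50 CPM in control. Of the 8 genes of the list, 7 were tested. The 3 with a paired fold change below 0 were star, cyp11c1 and fdx1b. The 4 above 0 were NR5A1 (0.39 ± 0.221), mrap (0.29 ± 0.467), mc2r (0.20 ± 0.199) and cyp17a2 (0.06 ± 0.144, log2, SE). Summed over all 8 interrenal markers, which include these 3 androgen synthesis genes, levels were 31.9 to 92.5 CPM with Amh and 34.7 to 142 CPM in control. In control library 4, which had the highest sum (142 CPM), star held 78.0 CPM and cyp11c1 33.0 CPM. The sums are therefore no measure of interrenal cells separate from the androgen synthesis genes.

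Markers of other cells were set beside these genes in the same paired comparison, with 51.2% of all genes below 0 as the background. Of 14 macrophage and leukocyte markers matched, 12 were tested and all 12 had a paired fold change below 0. Their paired median was -0.51 (log2), and 2 were called, cd74a and mhc2dab (paired edgeR, where 0.0103% of all genes were called lower). cd74a, the invariant chain of MHC class II, stood at 62.0 ± 23.1 CPM with Amh and 95.9 ± 40.3 CPM in control (SD, n = 5 each; paired adjusted p = 0.0296). The 14 summed to 241 to 421 CPM with Amh and 335 to 585 CPM in control. Of 7 erythrocyte markers matched, 5 were tested and all 5 had a paired fold change below 0 (median -0.33). Paired edgeR called 0 of them. Paired DESeq2 called cahz, lower with Amh (adjusted p = 0.0347), where it called 0.0614% of all genes with an adjusted p as lower. The 7 summed to 47.5 to 118 CPM with Amh and 67.5 to 156 CPM in control.

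Of 16 Sertoli markers matched, 15 were tested, 12 of them above 0 (paired median 0.28). Paired edgeR called 0 of them, with an unadjusted p under 0.05 for 7 with Amh higher and 2 with Amh lower (3.84% and 4.88% of all genes). FSHR, one of the 7, was also counted among the steroid regulators above. Paired DESeq2 called CLU, higher with Amh (adjusted p = 0.0267), where it called 0.192% of all genes with an adjusted p. The 16 summed to 2018 to 3065 CPM with Amh and 1718 to 2424 CPM in control. igf3, an insulin-like growth factor made by Sertoli cells in zebrafish, was among the 3 below 0, at 4.33 ± 1.16 CPM with Amh and 7.34 ± 2.44 CPM in control (SD, n = 5 each; paired adjusted p = 0.290). Of 14 germ cell markers tested, 12 were below 0 (median -0.11, 0 called, 3 lower at an unadjusted p under 0.05, beside 4.88% of all genes), with sums of 5433 to 6398 CPM with Amh and 5915 to 7070 CPM in control. The other Leydig markers (9 matched, 8 tested, insl3 included) had a paired median of -0.03, 4 above 0 and 4 below, with sums of 123 to 257 CPM with Amh and 133 to 330.0 CPM in control. Some of these markers, lhcgr and NR5A1 among them, were also counted among the steroid regulators. The other genes of smallest unpaired p in these lists had paired fold changes of 0.43 ± 0.0902 (CLU, clusterin, Sertoli), 0.28 ± 0.141 (INHBB, an inhibin and activin subunit, Leydig), -0.42 ± 0.125 (grna, macrophage), -0.30 ± 0.0976 (hbaa2, a globin) and -0.42 ± 0.382 (alas2, heme synthesis, erythrocyte). In germ cells they were -0.42 ± 0.173 for KIT and -0.19 ± 0.0692 for ROPN1L (log2, SE). The part of these differences in the values of the androgen synthesis genes was not tested.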

How the data were processed

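RNA of 10 testis libraries (5 Amh, 5 control) was measured. The deposited files hold raw read counts per Ensembl gene, 1 file a library, with no normalization. Per the submitters' processing notes, the tools were HTSeq, DESeq, TopHat2 2.0.5, FastQC 0.10.1 and SAMtools 0.1.18, with build Zv9. The sources used here give neither annotation release, counting mode nor strand setting. Reads of paralogues may therefore be split or lost.

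Counts were filtered with filterByExpr (19420 of 33737 genes kept), scaled by TMM and tested with edgeR 4.0.16 in R 4.3.3 (quasi-likelihood F test, group only, adjusted p threshold 0.05). SE is the log2 fold change over the square root of F. Log2 CPM used a prior count of 2. Replicate numbers were taken to pair the samples, since each number's libraries correlated above 0.1 and each of the 10 libraries had its highest correlation with its partner of the same number. The labels do not say what a number marks, so p-values measure the spread between libraries as deposited. Alternatives were DESeq2 1.42.0, limma-voom (limma 3.58.1), other scalings, no filter, thinned counts, the replicate block and leaving out libraries. The scripts were tested on simulated data.

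The alternatives that left out a number in DESeq2 were chosen after seeing the data. Symbols came from a name table (112 of 134 list entries matched: 54 exactly, 37 in another case, 21 without the paralogue letter). Genes named beside the 10 were insl3, lhcgr, fshr, nr5a1, cyp21a2, mc2r, cyp17a2, cyp19a1, fdxr and por, the 2 of smallest unpaired p in each list, and the 8 of most like pattern. mrap, mhc2dab, cahz and NPC2 ENSDARG00000096979 fall outside this rule and were chosen after their values were seen. Promoter motifs and sequences were not analysed here. One further gene of the rule is not reported here. The 10 genes and the lists were chosen with earlier results of these data known.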

Additional observations from a re-analysis of the deposited data

How the results depend on the processing

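Unpaired, 0 genes overall and 0 of the 10 androgen synthesis genes were called under RLE or upper-quartile scaling, no filter, DESeq2, limma-voom, thinned counts and without any 1 library (91 to 331 genes overall at an unadjusted p under 0.05; 3 of the 10 and 153 of all genes without control library 3, and 0 of the 10 otherwise). With the replicate block the count over all genes was 4 in edgeR, 25 in DESeq2, 8 in limma-voom, 3 with RLE and 3 with upper-quartile scaling, 113 with no filter and 1 with thinned counts. Without number 1, 2, 3, 4 and 5 it was 1, 229, 1, 0 and 0 in edgeR and 10, 229, 15, 10 and 3 in DESeq2. Leaving out libraries or numbers gave 0 to 4 among the 10, and 0 to 1 (NPC2 ENSDARG00000090912) among the 39 other steroid genes. Among the 10, the block gave 2 in DESeq2 and 3 with no filter, and the other paired counts with all pairs were 0. The cause was not tested.

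Below 0 in all 33 alternatives were star, cyp11c1, hsd11b2, hsd3b1, cyp17a1, fdx1b and hsd17b3. The alternatives reuse the same libraries, and the share of all genes that kept their sign was not computed. Unpaired, hsd17b3 came as near to 0 as -0.07 (log2). cyp11a1 ENSDARG00000002347 ran from -0.14 to 0.040 (log2) without 1 library, and was 0.0062 with thinned counts and 0.018 with the block and thinned counts. With the block and without number 2, 4 and 5 it was 0.017, 0.011 and 0.067 in edgeR and 0.021, 0.013 and 0.067 in DESeq2. cyp11a1 ENSDARG00000092696 ran from -0.16 to 0.34 without 1 library. With the block and without number 1 and 2 it was -0.0050 and -0.16 in edgeR and -0.0021 and -0.16 in DESeq2. hsd3b2 was -0.025 in DESeq2 with the block and without number 4, above 0 elsewhere, and had no value in 7 alternatives. Of the 8 genes of like pattern, 4 stayed with thinned counts and 3 to 7 without 1 library. hsd3b2 and hsd17b3 had the fewest reads of the 10.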

Other observations

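Set against insl3 within each library, star was lower in the Amh library in 5 of 5 pairs, with log2 differences of Amh minus control of -0.55, -0.70, -0.07, -0.20 and -0.17 in numbers 1 to 5. In number 1 star itself was not lower (log2 ratio 0.12), and its value there follows the higher insl3 of the Amh library (ratio 0.66). The share of all genes lower than insl3 in this way was not computed. Relative to insl3, cyp11c1 and fdx1b were lower in 4 of 5 pairs, and hsd11b2, cyp17a1, hsd3b1 and hsd17b3 in 3 of 5. cyp11a1 ENSDARG00000002347 and hsd3b2 were lower in 2 of 5, and cyp11a1 ENSDARG00000092696 in 1 of 5. In number 3, where insl3 was low, the log2 difference of hsd11b2 from insl3 was 1.06 (Amh) and 0.63 (control), and in the other 8 libraries it was -2.54 to -0.54. Gene lengths are not used, so the sign of this difference does not rank the 2 genes. These are ratios of counts of 2 genes in 1 library and were not tested.

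mc2r was highest where star was lowest. In number 3 mc2r stood at 5.94 CPM (Amh) and 5.50 CPM (control) and star at 4.72 and 6.90 CPM. In number 4 mc2r stood at 3.28 CPM (Amh) and 2.27 CPM (control) and star at 45.6 and 78.0 CPM. mrap, its partner in the interrenal list, had another pattern. It was highest in number 4 of both groups (2.42 CPM with Amh and 1.18 CPM in control). In number 3 it stood at 0.961 CPM (Amh) and 0.970 CPM (control), and in number 5 at 0.842 and 1.03 CPM. It had 0 reads in numbers 1 and 2, so it followed neither mc2r nor star.

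In 30 sets of 5 values (levels in each group and pair ratios of the 10 genes), 0 held a value that stood apart by Dixon's test.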
